A study of Mus musculus with 24 samples.

Results

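The comparison described here set skin of mice treated with the systemic JAK1 inhibitor (systemic JAK1i) against skin of healthy mice, and asked which genes still differed from healthy after treatment of alopecia areata (AA). Its members were the 12 RNA-seq libraries that the sample names assign to these groups, 6 systemic JAK1i and 6 healthy, out of 24 in the series. The remaining 12 libraries were 6 of untreated AA skin and 6 of skin taken after 8 weeks off treatment, and they served to estimate the spread and for values set beside the main ones. All groups were female C3H/HeJ mice, about 30 weeks old at the end of the study, and dorsal skin was labelled as the tissue throughout.

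Systemic JAK1i mice had received AA by a skin graft from an affected donor, and then ate the compound (Cmpd A, AZ13748709) at about 100 mg/kg once a day by mouth. Their skin was sampled at week 4, by biopsy of live mice to judge from the "NoTerm" in the sample names, and the same mice later gave the 8w off treatment libraries. Healthy skin was sampled at week 12 from mice with no disease, and the names of the AA libraries hold "Vec12w", so a vehicle may have been given to AA mice but not to healthy ones. The series text speaks of 12 weeks of dosing where the sample names give 4. Sampling week and with it age when sampled, live or terminal sampling, the graft, any vehicle and the drug therefore cannot be told apart in the contrast. One strain, sex and model limit what the groups stand for.

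AA is a hair loss disease in which CD8 T cells gather around the growing hair follicle and release interferon gamma. Interferon gamma binds its receptor, the kinases JAK1 and JAK2 are activated, and genes with a gamma-activated site are switched on, among them the immunity-related GTPases and guanylate-binding proteins, which defend cells from intracellular microbes. Keratinocytes answer with interleukin 15, which keeps CD8 T cells and natural killer (NK) cells alive through the receptor chain Il2rb, again through JAK1. An inhibitor of JAK1 acts on both arms of this loop. Mouse skin also holds resident gamma-delta T cells in the epidermis, which depend on the same receptor chain.

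Gm12185, an immunity-related GTPase gene, was among the genes that rose, and Ifitm6 and Ifitm2, of the interferon-induced transmembrane family, were among those that fell. The 250 bases before their RefSeq starts (build GRCm38.p6, all on the minus strand and written 5′ to 3′) are shown because the families are known interferon targets. Capitals mark matches to the interferon-stimulated response element (GAAA and GAAA parted by any 2 bases) or the gamma-activated site (TTCNNNGAA), searched on both strands.
Gm12185, chr11:48927183-48927432: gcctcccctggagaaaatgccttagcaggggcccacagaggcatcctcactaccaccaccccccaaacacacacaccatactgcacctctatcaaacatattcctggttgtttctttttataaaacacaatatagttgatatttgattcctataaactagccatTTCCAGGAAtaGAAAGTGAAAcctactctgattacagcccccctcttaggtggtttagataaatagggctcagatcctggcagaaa
Ifitm6, chr7:141016893-141017142: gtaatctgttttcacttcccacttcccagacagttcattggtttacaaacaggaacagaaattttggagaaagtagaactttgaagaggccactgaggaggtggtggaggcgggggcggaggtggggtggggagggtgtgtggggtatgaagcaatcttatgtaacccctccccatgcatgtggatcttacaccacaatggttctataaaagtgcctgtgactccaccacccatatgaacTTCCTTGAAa
Ifitm2, chr7:140955962-140956211: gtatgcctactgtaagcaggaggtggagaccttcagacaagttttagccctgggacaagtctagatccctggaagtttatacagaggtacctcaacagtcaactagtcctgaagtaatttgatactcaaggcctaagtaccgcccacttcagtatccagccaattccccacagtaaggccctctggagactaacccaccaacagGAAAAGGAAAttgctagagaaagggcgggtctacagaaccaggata
In Gm12185 a gamma-activated site began 86 bases before the start and a response element 75 bases before it, without overlap. In Ifitm6 the window held a gamma-activated site 10 bases before the start, and in Ifitm2 a response element 46 bases before it. Of the 170 genes that differed, 114 had such a window, and 6 of these (5.26%) held the response element and 14 (12.3%) the gamma-activated site, against 3.46% and 8.13% of all 27025 genes with a window. These matches describe letters only.

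Healthy libraries held between 3649611 and 6407908 counts in genes, and systemic JAK1i libraries between 5559273 and 11233020. The 8 skin markers checked, among them Krt14, the keratin of basal keratinocytes, were all expressed, with summed levels of 14470 to 24350 CPM, the counts of a gene scaled to library size, in healthy and 15060 to 18720 CPM in systemic JAK1i skin. Healthy libraries A and E stood apart, with far less muscle RNA than the others. The mean log2 CPM of 31 skeletal muscle genes was 3.25 in healthy A and 3.01 in healthy E, and 8.02 to 8.46 in healthy B, D and F with healthy C in between, whereas the 6 systemic JAK1i libraries lay between 8.02 and 8.48. Because muscle content differed between the groups in this way, fits with the muscle mean as a covariate and without healthy A and E were added, and the genes called without that pair are listed at the end.

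Skin after 4 weeks of systemic JAK1i differed from healthy in 170 of 16248 genes tested, which is 1.05% of them (edgeR, adjusted p under 0.05). Of these, 83 were higher (0.511%) and 87 lower (0.535%). Differences of over 2-fold were found for 75 genes, 46 higher and 29 lower. At the study's own thresholds, an adjusted p under 0.001 and a change of over 4-fold, 2 genes remained (0.0123%), the homeobox gene Hoxc10 among the higher and Ifitm6 among the lower. Setting apart the listed Hox, other position and muscle genes left 163 genes, 76 higher and 87 lower. The muscle list took out 1 called gene, Myh1. Genes known from muscle but not listed, such as Adprhl1, are still counted among the 163, so these are not free of muscle content. The libraries of both groups did not overlap for 100 of the 170 genes. Over all genes tested the share was 2.56% (1.42% with treated libraries above and 1.14% with them below). The 170 genes were picked by a test on these same libraries, so their higher share is no separate support. The shares of 0.511% and 0.535% are the measure for list members called in edgeR further on. For other counts of list members, the share of all genes at an unadjusted p under 0.05 was 7.91% higher and 9.02% lower, the share called by DESeq2 1.77% and 2.13%, and that called by limma-voom 7.19% and 5.31%. For counts of direction, 7738 of all 16248 fold changes were above 0 and 8509 below. In bulk skin, fewer cells of a type and less RNA per cell cannot be told apart.

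**Figure D1:**
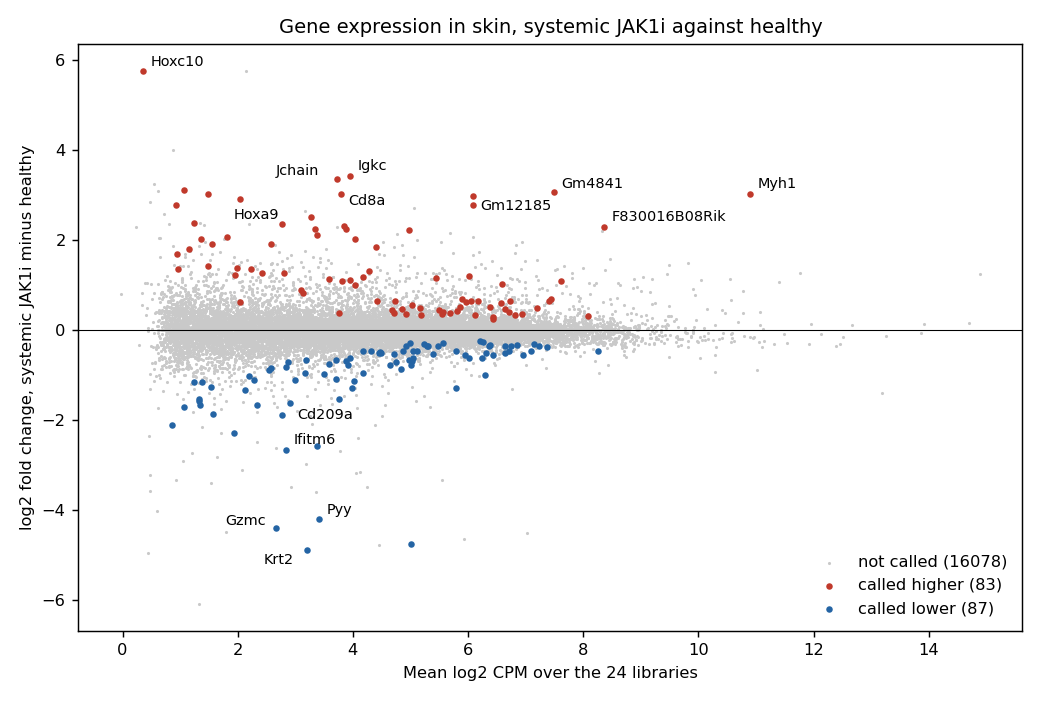
Each point is a gene, with its mean log2 CPM on the x axis and its log2 fold change of systemic JAK1i over healthy on the y axis. Grey points are the 16078 genes not called, and coloured points the 83 higher and 87 lower genes, most of which changed by less than 4-fold.

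How many genes differed depended on the healthy libraries. Leaving out healthy A gave 49 genes, healthy C 76 and healthy E 57, whereas leaving out healthy F gave 704. Without systemic JAK1i libraries A, B, C, D or E in turn, the number was 109, 96, 62, 93 and 84. With the muscle covariate 87 genes were called, 57 higher and 30 lower, of which 43 were among the 170. Without both healthy A and E, 12 genes were called, of which 11 were among the 170. All 170 genes kept their direction in both, and their median absolute log2 fold change was 0.78 at first, 0.70 with the covariate and 0.74 without the pair. For the 83 higher genes these medians were 1.12, 0.76 and 0.88, and for the 87 lower genes 0.68, 0.64 and 0.65. A set of 36 genes was called in every one of the 12 fits that left out 1 library, and 21 of these outside the position and muscle lists were called with the covariate as well. Among these 21 were Krt2, Gzmc, Ifitm6, Krt24, Cd209a, Il2rb, Slc27a3, Banp, Vwa1 and Ifitm2, all lower, and Trp53inp1, mt-Tc, Tmem38b, Slc25a33, Myoc, Scn2a, F830016B08Rik, Gm830, Gm12185 and 9630001P10Rik, all higher. Of the 21, Ifitm6, Ifitm2, Gm12185 and 9630001P10Rik were also called without healthy A and E. Gm830, Scn2a and Myoc were not (adjusted p = 0.0537, 0.105 and 0.107, edgeR). Each was lower in healthy A, C and E than in B, D and F, so the 21 are not free of muscle content.

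**Figure D2:**
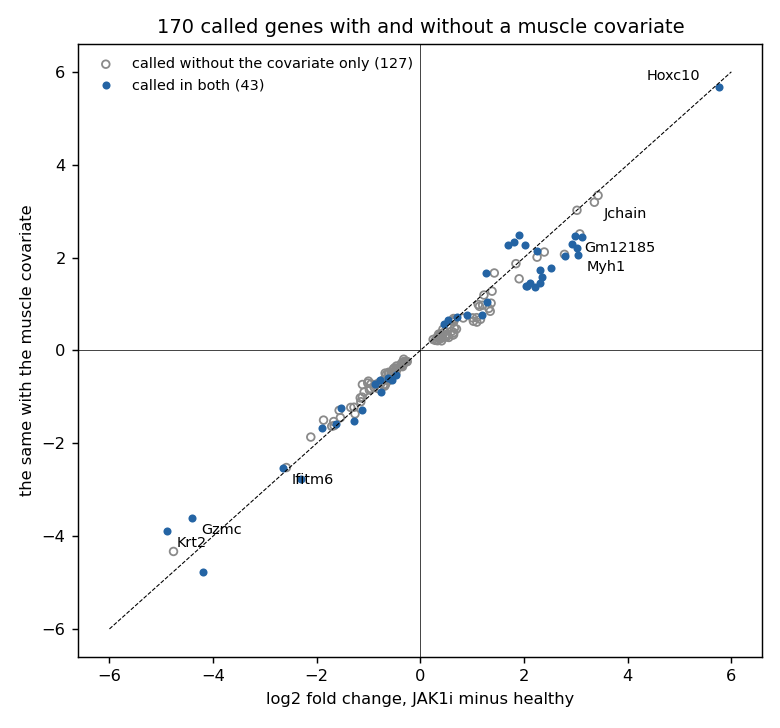
Each point is 1 of the 170 genes, with its log2 fold change without the muscle covariate on the x axis and with it on the y axis. All points keep their sign, and the 43 coloured genes passed the threshold in both fits while the 127 grey ones did not.

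Some immunity-related GTPase genes were above healthy levels in treated skin. Gm12185, F830016B08Rik and Gm4841 rose, 3 of 15 measured members against 0.511% of all genes, and 12 of the 15 had a fold change above 0. The summed level of the list was 110 to 184 CPM in healthy and 152 to 639 CPM in systemic JAK1i skin, beside 1434 to 3850 CPM in AA. The upper end was 1 library, systemic JAK1i A at 639 CPM, followed by B at 360 CPM, whereas C, E and F (152 to 190 CPM) overlapped healthy. Systemic JAK1i A was also highest in summed guanylate-binding protein genes (396 CPM, the others 122 to 178), MHC class I genes (3027 CPM, the others 1819 to 2199) and B and plasma cell genes (469 CPM, the others 94.6 to 222).

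Gm12185 lay between 0.744 and 4.46 CPM in healthy (median 1.37) and between 8.32 and 21.9 CPM in systemic JAK1i skin (median 15.7). Every treated library was above every healthy library. The log2 fold change was 2.98 ± 0.46 (SE, n = 6 against 6), a 7.91-fold difference with an adjusted p of 0.00206 in edgeR. F830016B08Rik, a further member, went from 5.69 to 32.1 CPM in healthy (median 13.3) to 34.6 to 127 CPM (median 60.5), again with no overlap, a 4.93-fold difference (adjusted p = 0.0091, edgeR). Gm4841 ran from 0.396 to 2.23 CPM in healthy (median 0.503) and from 0.993 to 18.6 CPM in systemic JAK1i skin (median 7.98), so that the groups overlapped. Its log2 fold change was 3.08 ± 0.80 (adjusted p = 0.0354, edgeR), and it was called in 5 of the 12 fits without 1 library. With the muscle covariate the adjusted p in edgeR was 0.00762 for Gm12185, 0.0273 for F830016B08Rik and 0.151 for Gm4841. On the deposited TPM values, centred by library, log2 fold changes were smaller and Gm12185 missed the threshold (1.59, limma, adjusted p = 0.0507). F830016B08Rik passed there (1.31, limma, adjusted p = 0.024) and Gm4841 did not (0.96, limma, adjusted p = 0.135). DESeq2 called these genes, and limma-voom all of them but Gm4841 (adjusted p = 0.158). The family has near-identical copies and Gm12185 shares exon sequence positions with Tgtp1 on the same strand, so how reads were divided among members is uncertain.

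Levels in AA skin gave the scale of what remained. The median of Gm12185 was 94.8 CPM in AA and 141 CPM in 8w off treatment, and that of F830016B08Rik was 428 and 617 CPM. The median log2 fold change over the 15 members was 0.70 for systemic JAK1i, 4.36 for AA and 4.33 for 8w off treatment over healthy, contrasts that share the healthy libraries. Among members that did not pass, Tgtp2 had a log2 fold change of 1.43 ± 0.55 (adjusted p = 0.176, edgeR) and Iigp1 of 1.05 ± 0.43 (adjusted p = 0.217, edgeR). Iigp1 spanned 20.7 to 164 CPM across treated libraries, with A highest, beside 15.5 to 40.4 CPM in healthy.

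No guanylate-binding protein gene passed in edgeR, with 2 of 8 at an unadjusted p under 0.05, 1 called by DESeq2 and 0 by limma-voom. The 2 were Gbp8 (log2 fold change 1.84 ± 0.68, adjusted p = 0.149, edgeR) and Gbp11 (1.43 ± 0.53, adjusted p = 0.156, edgeR). None of the 57 other interferon-stimulated genes passed either. At an unadjusted p under 0.05, 15 were lower and 1 was higher, DESeq2 called 9 lower and limma-voom 4 lower and 1 higher, and 45 of 57 fold changes were below 0. Their median log2 fold change was −0.33, against −0.01 over all genes, and the median for AA over healthy was 1.77. Oas2, a sensor of viral RNA, lay between 5.62 and 14.4 CPM in healthy and 2.94 and 6.95 CPM in treated skin, with a log2 fold change of −1.37 ± 0.36 that did not pass (adjusted p = 0.0612, edgeR).

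Cd8a, the co-receptor of cytotoxic T cells, was higher than in healthy skin. Its level was 0.176 to 1.03 CPM in healthy (median 0.461) and 1.32 to 8.83 CPM in systemic JAK1i skin (median 3.86), with no overlap. The log2 fold change was 3.02 ± 0.86 (adjusted p = 0.0455, edgeR), but the call held in 2 of the 12 fits without 1 library, those without healthy F and without systemic JAK1i F, and the adjusted p with the muscle covariate was 0.132. DESeq2 called Cd8a (adjusted p = 0.000232), whereas limma-voom did not (adjusted p = 0.166). On centred TPM values its log2 fold change was 0.56 and did not pass (limma, adjusted p = 0.351). Cd8b1, the partner chain, had 0 counts in every healthy library and 50 counts in all over the treated ones, which is at least 12.8-fold higher against a floor of 3 counts over the healthy group. That difference did not pass in edgeR (adjusted p = 0.0875). The AA median of Cd8a was 23.1 CPM. Cxcl9, the chemokine that draws T cells in AA, spanned 1.58 to 8.93 CPM in healthy and 2.85 to 39.8 CPM in treated skin and did not pass (log2 fold change 1.38 ± 0.65, adjusted p = 0.282, edgeR).

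**Figure D3:**
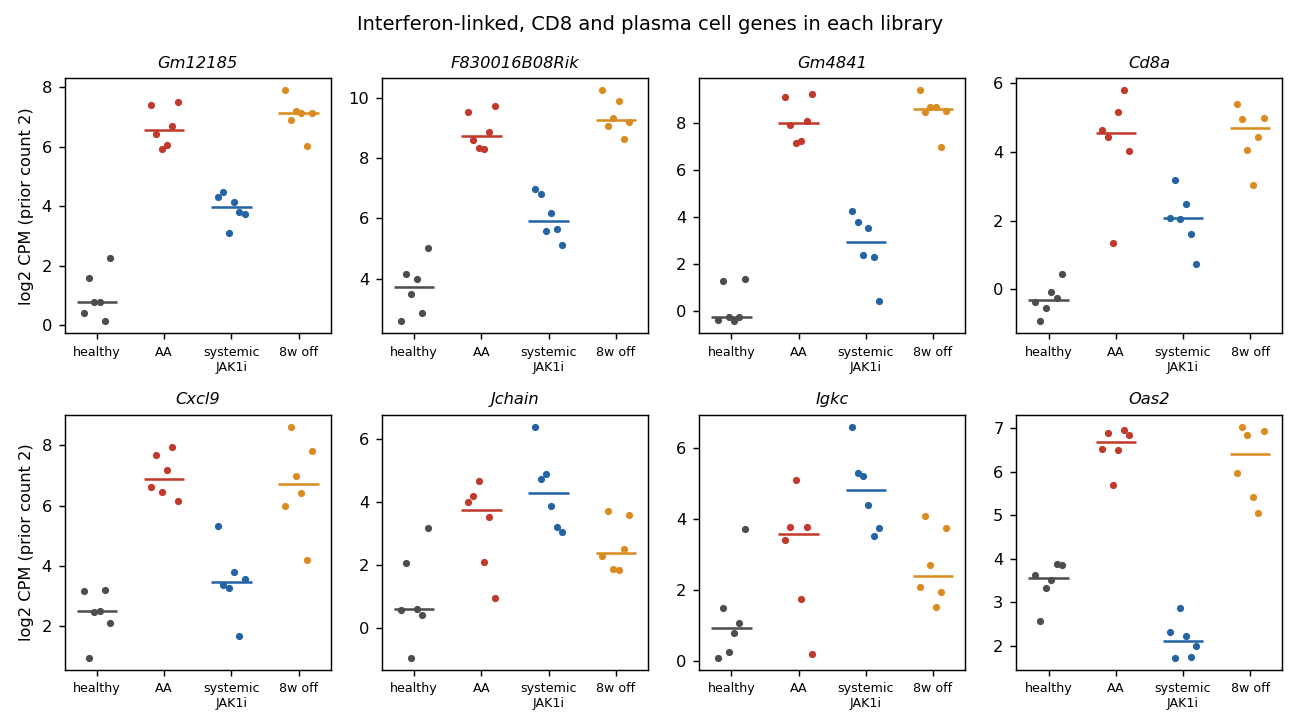
Log2 CPM of 8 genes in every library of the 4 groups, with the group median as a line. Gm12185, F830016B08Rik and Cd8a show no overlap between healthy and systemic JAK1i libraries, whereas Cxcl9 and Oas2 overlap.

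Some genes of cytotoxic lymphocytes, NK cells and gamma-delta T cells were below healthy levels in the same skin. Gzmc, Il2rb, Tcrg-C1, Trdv4 and Cd7 fell, as did the receptors Kir3dl1, Kir3dl2 and Klrb1f. Of the T cell list, 1 gene rose (Cd8a) and 1 fell (Cd7) among 23; of the cytotoxic list 1 of 12 fell, and of the gamma-delta list 2 of 7, against 0.535% of all genes. The summed level of the 12 cytotoxic genes was 30.0 to 57.3 CPM in healthy and 16.3 to 32.0 CPM in treated skin, and that of the 7 gamma-delta genes was 51.3 to 71.4 and 51.8 to 67.5 CPM, with medians of 56.4 and 60.1 CPM, so that their sum was not lower in treated skin.

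Gzmc, a serine protease of cytotoxic granules, ran from 2.21 to 10.5 CPM in healthy (median 4.58) and from 0 to 0.45 CPM in systemic JAK1i skin (median 0.219). The groups did not overlap, and the AA and 8w off treatment medians were 12.3 and 6.72 CPM. Its log2 fold change was −4.41 ± 0.94 (adjusted p = 0.00867, edgeR), −3.61 with the muscle covariate (adjusted p = 0.0274, edgeR) and −3.75 without healthy A and E. Il2rb, the chain through which interleukins 2 and 15 signal, fell from 6.5 to 13.8 CPM in healthy (median 10.1) to 2 to 4.5 CPM (median 3.93), a 2.90-fold difference without overlap (adjusted p = 0.0091, edgeR). Its AA median, 22.6 CPM, was above healthy, whereas the treated libraries all lay below healthy. Both genes were called in each of the 12 fits without 1 library and, without healthy A and E together, had adjusted p in edgeR of 0.0674 and 0.0779.

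Receptors of NK cells and subsets of T cells moved the same way. Kir3dl2, a killer-cell immunoglobulin-like receptor, was at 2.81 to 5.26 CPM in healthy (median 3.76) and 0.662 to 2.25 CPM in treated skin (median 1.15), with no overlap (log2 fold change −1.54 ± 0.30, adjusted p = 0.015, edgeR). Its relative Kir3dl1 had a log2 fold change of −2.12 ± 0.44 (adjusted p = 0.0166, edgeR), and the lectin-like receptor gene Klrb1f one of −1.57 ± 0.33 (adjusted p = 0.0187, edgeR), both with overlap of a healthy library. Cd7, a surface protein of T and NK cells, went from 4.74 to 10.2 CPM (median 7.7) down to 1.98 to 3.95 CPM (median 2.83), and the groups did not overlap (log2 fold change −1.34 ± 0.28, adjusted p = 0.0204, edgeR).

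Tcrg-C1, a constant region of the T cell receptor gamma chain, was at 2.57 to 4.47 CPM in healthy (median 3.41) and at 0.15 to 1.62 CPM in systemic JAK1i skin (median 0.924). No treated library reached the lowest healthy one, and the AA median was 1.22 CPM. The log2 fold change was −1.71 ± 0.40 (adjusted p = 0.0315, edgeR). Trdv4, a delta chain segment used by epidermal gamma-delta T cells, had a log2 fold change of −1.16 ± 0.28 (adjusted p = 0.0432, edgeR), with overlap. Trbc1, a constant region of the beta chain (−1.02 ± 0.24, adjusted p = 0.0387, edgeR), and Runx3, a transcription factor of cytotoxic T cells (−0.66 ± 0.16, adjusted p = 0.0451, edgeR), also fell. These calls were less stable than the first: Cd7 was called in 9 of 12 fits without 1 library, not without healthy A, healthy E or systemic JAK1i D, while Tcrg-C1 was called in 4, Trbc1 in 4, Trdv4 in 3 and Runx3 in 2. Kir3dl1 and Klrb1f missed the threshold only without healthy A. With the muscle covariate the adjusted p in edgeR was 0.0591 for Kir3dl2, 0.0822 for Kir3dl1, 0.102 for Klrb1f, 0.0814 for Cd7, 0.0992 for Tcrg-C1, 0.18 for Trdv4, 0.262 for Trbc1 and 0.13 for Runx3, so that all these calls were lost.

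The invariant chains of the T cell receptor complex did not pass. Cd3e, a chain of the receptor complex of all T cells, was at 5.62 to 11.7 CPM in healthy and 4.04 to 6.81 CPM in treated skin (log2 fold change −0.65 ± 0.22, adjusted p = 0.13, edgeR), and Cd3g had a log2 fold change of −0.60 ± 0.24 (adjusted p = 0.194, edgeR). Prf1, the pore-forming perforin, missed the threshold at −1.15 ± 0.31 (adjusted p = 0.064, edgeR). Ncr1, an NK receptor, had 28 counts over the healthy libraries and 3 over the treated ones, a ratio of 12.2-fold lower with a counting interval of 3.75 to 62.4, and its adjusted p in edgeR was 0.0577. Klrk1, an activating receptor that AA studies use to mark CD8 T cells, had a log2 fold change of −0.59 ± 0.27 (adjusted p = 0.264, edgeR). No gene of the 15 on the list of type 1 helper cells and CXCR3 ligands passed in edgeR, DESeq2 or limma-voom, with 1 higher and 1 lower at an unadjusted p under 0.05.

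The drug target was close to healthy at the RNA level. Jak1 itself was at 263 to 311 CPM in healthy and 262 to 301 CPM in treated skin, a log2 fold change of −0.02 with a 95% interval of −0.18 to 0.14. None of 24 JAK-STAT pathway genes passed in edgeR, 4 being lower and 0 higher at an unadjusted p under 0.05, with 1 lower by DESeq2 and 2 by limma-voom. Stat3 did not pass, at −0.29 ± 0.09 on the log2 scale (adjusted p = 0.115, edgeR). It was nonetheless lower in every treated library (7.27 to 7.50 log2 CPM) than in any healthy one (7.51 to 7.84). Among 28 cytokines and receptors that signal through JAK1, 2 fell, Il2rb and Osmr. Osmr, the receptor chain of oncostatin M, changed little (98.4 to 141 CPM in healthy, 90.6 to 101 CPM in treated skin, log2 fold change −0.32 ± 0.08, adjusted p = 0.0451, edgeR) and was called in 2 of 12 fits without 1 library and not with the muscle covariate (adjusted p = 0.316).

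**Figure D4:**
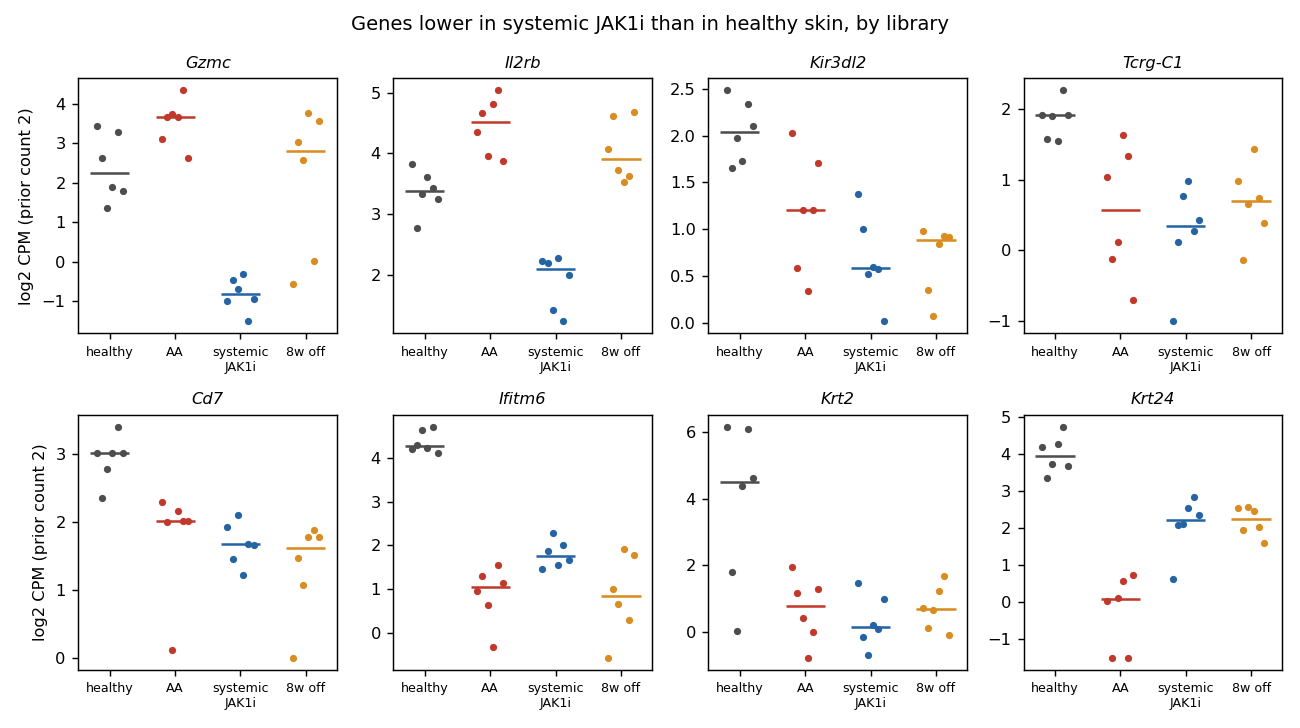
Log2 CPM of 8 genes that fell below healthy levels under systemic JAK1i, in every library of the 4 groups, with the group median as a line. The healthy and systemic JAK1i libraries do not overlap for 7 of them, and for Krt2 they do.

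Antibody genes were above healthy levels. Jchain, which joins IgA and IgM into polymers, and Igkc, the constant region of the kappa light chain, rose, 2 of 8 B and plasma cell genes against 0.511% of all genes. Jchain ran from 0.17 to 8.75 CPM in healthy (median 1.16) and from 7.94 to 82.8 CPM in systemic JAK1i skin (median 20.1), and the highest healthy library, F, reached into the treated range. Its log2 fold change was 3.36 ± 0.71, a 10.2-fold difference (adjusted p = 0.021, edgeR). Igkc was at 0.711 to 12.7 CPM in healthy and 11.1 to 96.3 CPM in treated skin (log2 fold change 3.43 ± 0.74, adjusted p = 0.0257, edgeR). Igha, the heavy chain of IgA, had a log2 fold change of 2.70 ± 0.68 that did not pass (adjusted p = 0.0577, edgeR), and neither did Ighm (0.87 ± 0.35, adjusted p = 0.203, edgeR). The AA medians were 13.3 CPM for Jchain and 11.7 CPM for Igkc. Jchain missed the threshold without healthy A, C or E or systemic JAK1i A, and Igkc without healthy A, C, D or E or systemic JAK1i A or C. The fold depended on single libraries, since the log2 fold change of Jchain was 4.23 without healthy F and 2.65 without systemic JAK1i A, and that of Igkc was 4.68 without healthy F. With the muscle covariate both had an adjusted p of 0.0708 in edgeR.

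Several genes of dendritic cells and 1 gene of the macrophage list fell. Cd209a, a lectin of dermal dendritic cells, was at 4.22 to 32.2 CPM in healthy (median 16.4) and 3.47 to 7.73 CPM in systemic JAK1i skin (median 5.12), with overlap at the lower end of healthy. The log2 fold change was −1.62 ± 0.33 (adjusted p = 0.0187, edgeR), the AA and 8w off treatment medians were 3.27 and 1.96 CPM, and the gene was called in each of the 12 fits without 1 library. Its relative Cd209c (−1.67 ± 0.37, adjusted p = 0.0313, edgeR) and Flt3, the growth factor receptor of dendritic cells (−1.12 ± 0.26, adjusted p = 0.041, edgeR), fell but were called in 5 and 3 of those fits. Of 19 dendritic cell genes 2 were called, Cd209a and Flt3, and 17 of 19 fold changes were below 0, while the summed level of the list was 307 to 432 CPM in healthy and 279 to 438 CPM in treated skin.

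Cx3cr1, the fractalkine receptor of macrophages and Langerhans cells, went from 4.57 to 6.86 CPM in healthy (median 5.87) down to 2.73 to 4.41 CPM (median 3.06), with no overlap (log2 fold change −0.89 ± 0.17, adjusted p = 0.0159, edgeR). It was the 1 gene called among 20 macrophage genes, and its AA median was 7.22 CPM. The macrophage list went the other way, with 15 of 20 fold changes above 0 and a median log2 fold change of 0.25. Ccl11, the eotaxin that attracts eosinophils, fell from 18 to 38.1 CPM to 8.84 to 16.5 CPM without overlap (−1.12 ± 0.25, adjusted p = 0.0315, edgeR) and was called in 5 of 12 fits without 1 library. H2-Ob, which tunes peptide loading of MHC class II, was the 1 gene called of 12 in that list (−0.95 ± 0.20, adjusted p = 0.0217, edgeR). The abundant class II genes did not pass, with log2 fold changes of −0.60 ± 0.26 for Cd74 (adjusted p = 0.236, edgeR) and −0.38 ± 0.28 for H2-Aa (adjusted p = 0.513, edgeR). With the muscle covariate the adjusted p in edgeR was 0.0481 for Cd209a, 0.0708 for Cx3cr1, 0.104 for Ccl11, 0.29 for Flt3, 0.0992 for Cd209c and 0.156 for H2-Ob.

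Ifitm6 had the smallest adjusted p of the genes that fell. The family encodes small membrane proteins that block virus entry, and Ifitm6 is best known from myeloid cells. Its level was 16.8 to 25.8 CPM in healthy (median 18.9) and 2.4 to 4.5 CPM in systemic JAK1i skin (median 3.06), far from overlap. The log2 fold change was −2.66 ± 0.27, a 6.32-fold difference (adjusted p = 1.13e-05, edgeR), with an adjusted p of 0.00023 with the muscle covariate and 0.000357 without healthy A and E. The medians of AA (1.72 CPM) and 8w off treatment (1.45 CPM) were below healthy too, and systemic JAK1i was above AA by 0.95 on the log2 scale (adjusted p = 0.0212, edgeR), in a contrast that shares the treated libraries with the main one.

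Ifitm2 followed on a smaller scale, from 76.8 to 105 CPM in healthy (median 87.4) to 51.5 to 64.8 CPM (median 55.9), again without overlap (log2 fold change −0.63 ± 0.11, adjusted p = 0.0091, edgeR). Ifitm3 had lower values in every treated library (31.2 to 51.7 CPM) than in any healthy library (60.5 to 74.1 CPM), but did not pass (−0.73 ± 0.24, adjusted p = 0.124, edgeR), and its AA median of 119 CPM was above healthy. Of the 6 members measured, 2 fell and 5 had fold changes below 0. Of 16 MHC class I genes, 12 had fold changes above 0, and the 1 gene called, H2-Q10 of the Q region, fell. H2-Q10 was at 0.744 to 17.1 CPM in healthy and 0.57 to 2.21 CPM in treated skin (−2.30 ± 0.50, adjusted p = 0.0213, edgeR). Near-identical Q region copies make its reads uncertain, and on the deposited TPM values its difference did not pass (limma, adjusted p = 0.343).

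In the epidermis, 2 of 12 keratins fell, against 0.535% of all genes, and all 12 fold changes were below 0. Krt2, a keratin of the upper epidermis that in mice depends on body region, ranged from 0.68 to 71.8 CPM in healthy (median 22.6) and from 0.273 to 2.4 CPM in systemic JAK1i skin (median 0.761). The healthy libraries were spread widely, with the highest values in A and E, the libraries poorest in muscle, and healthy C within the treated range. Its log2 fold change of −4.88 ± 0.80 was the greatest fall by fold among the genes named here (29.5-fold, adjusted p = 0.0051, edgeR), and −3.89 with the muscle covariate (adjusted p = 0.0204, edgeR). Without healthy A and E it was −3.52 and the call was lost (adjusted p = 0.0537, edgeR). Krt24, a keratin of differentiating keratinocytes, was at 10 to 26.6 CPM in healthy (median 15.4) and 1.2 to 6.84 CPM in treated skin (median 4.38), with no overlap (−1.90 ± 0.33, adjusted p = 0.0091, edgeR). The AA medians were 1.45 CPM for Krt2 and 0.707 CPM for Krt24, both below healthy. Krt14 differed by −0.38 ± 0.20 on the log2 scale and did not pass (adjusted p = 0.337, edgeR).

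Further epithelial genes fell by smaller amounts. Scnn1a, a subunit of the epithelial sodium channel that was named after its values were seen, was at 25.2 to 58.9 CPM in healthy and 17.5 to 24.2 CPM in treated skin without overlap (log2 fold change −0.77 ± 0.17, adjusted p = 0.0315, edgeR). Of 41 hair cycle genes 2 fell, against 0.535% of all genes. These were the ligand gene Wnt16 and the Wnt antagonist gene Sfrp1, and 35 of 41 fold changes were below 0. Wnt16 went from 5.69 to 11.7 CPM (median 8.72) down to 3 to 4.97 CPM (median 3.82), without overlap (−1.12 ± 0.22, adjusted p = 0.0175, edgeR), with an AA median of 0.987 CPM. Sfrp1 had a log2 fold change of −0.55 ± 0.12 (adjusted p = 0.0204, edgeR). Scnn1a was called in 6 of the 12 fits without 1 library, Sfrp1 in 9, and Wnt16 in all but the fit without systemic JAK1i C.

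Genes of the growing hair shaft were too variable for a difference to be detected. Summed over 14 hair shaft keratins, healthy skin held 5.27 to 158 CPM and systemic JAK1i skin 8.27 to 124 CPM. No hair shaft keratin, none of 12 inner root sheath genes and none of 36 keratin-associated protein genes passed in edgeR, with 1, 2 and 0 at an unadjusted p under 0.05. Krt71, an inner root sheath keratin, spanned 0 to 162 CPM in healthy and 1.43 to 103 CPM in treated skin, and its log2 fold change of 0.47 had a 95% interval of −1.74 to 2.69. The AA median of Krt71 was 2746 CPM. Of 30 cell cycle genes none passed in edgeR or DESeq2 and 1 did in limma-voom, while 6 were lower at an unadjusted p under 0.05 and 29 of 30 fold changes were below 0. Bub1b, a mitotic checkpoint kinase, was an example at −0.57 ± 0.18 (adjusted p = 0.114, edgeR).

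Homeobox genes that mark position along the body axis set the groups apart. Of 26 Hox genes measured, edgeR called 6 higher, against 0.511% of all genes, and none lower. At an unadjusted p under 0.05, 10 were higher and 3 lower. DESeq2 called 4 higher and 0 lower, limma-voom 8 higher and 3 lower, and 7 of 26 fold changes were below 0. Hoxc10, Hoxa10, Hoxa9, Hoxc9, Hoxb9 and Hoxc5 were the 6 called in edgeR, all without overlap. All but Hoxc5 belong to the posterior part of their clusters. Hoxa9 was at 0.569 to 2.77 CPM in healthy (median 1.2) and 7.98 to 12.4 CPM in systemic JAK1i skin (median 9.53), a 7.57-fold difference (log2 fold change 2.92 ± 0.44, adjusted p = 0.00206, edgeR). Its median was 1.33 CPM in AA and 1.34 CPM in 8w off treatment, so the treated libraries stood apart from these groups as well. Hoxc10 had 1 count over all healthy libraries and 122 over the treated ones, a ratio of 93.7 with a counting interval of 16.5 to 3733 (adjusted p = 7.57e-06, edgeR). Hoxa10 was 8.66-fold higher (adjusted p = 0.00478, edgeR), and the log2 fold changes of Hoxc9, Hoxb9 and Hoxc5 were 2.03 ± 0.41, 1.68 ± 0.38 and 0.83 ± 0.17. The exons of Hoxc5 overlap those of Hoxc10 on the same strand, so their reads are not separate evidence.

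Healthy libraries B, D and F, whose mean log2 level of muscle genes was like that of the treated ones, also stayed below every treated library for Hoxa9, at or under 2.77 CPM. With the muscle covariate 5 of the 6 Hox genes were called, Hoxc5 being lost (adjusted p = 0.13, edgeR), and without healthy A and E 3 were called, Hoxc10, Hoxa10 and Hoxa9. Hoxb9 was called in 7 of 12 fits without 1 library and Hoxc5 in 9. No gene passed in edgeR of the 12 measured on a list of other position genes, with 1 higher at an unadjusted p under 0.05 and 1 higher by DESeq2 and by limma-voom. Outside the lists, the developmental transcription factor genes Sim1 (log2 fold change 2.78 ± 0.65, adjusted p = 0.0204, edgeR) and, named after its values were seen, Isl1 (2.06 ± 0.44, adjusted p = 0.0203, edgeR) rose. Each was called in 9 of 12 fits without 1 library and with the muscle covariate, but not without healthy A and E (adjusted p = 0.141 and 0.126, edgeR). Both were lower in healthy A, C and E than in healthy B, D and F, as muscle genes were. Since every treated library was high in the 6 Hox genes and no healthy library was, the place sampled and the treatment cannot be told apart.

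Healthy A, C and E had a lower mean log2 level of muscle genes than every treated library. Healthy B, D and F lay within the treated range. Of the 31 muscle genes, 27 had fold changes above 0, with a median log2 fold change of 1.04. In limma-voom 26 passed, but in edgeR and DESeq2 only 1 did. That gene was Myh1, the myosin heavy chain of fast IIx fibres, at 61.3 to 1370 CPM in healthy (median 610) and 4473 to 6088 CPM in treated skin (median 5198), with no overlap (log2 fold change 3.03 ± 0.67, adjusted p = 0.0427, edgeR). Myh4, the myosin of IIb fibres, overlapped widely, at 65.1 to 9280 and 1091 to 5047 CPM, and had a log2 fold change of −0.35 ± 0.74. Mb, the oxygen store myoglobin (1.88 ± 0.58, adjusted p = 0.109, edgeR), and Tnnt1, the slow fibre troponin T (−1.76 ± 0.61, adjusted p = 0.129, edgeR), differed in sign and did not pass. Summed over the 31 genes, muscle RNA was 1324 to 77970 CPM in healthy and 69300 to 86800 CPM in treated skin. Myh1 was called in 2 of 12 fits without 1 library, those without healthy B and healthy F, and not without healthy A and E (adjusted p = 0.145, edgeR). With the muscle covariate it was called (adjusted p = 0.00877, edgeR), but it is itself among the 31 genes averaged there, so that fit is no separate check. The part of muscle content in the other results was not tested beyond these fits.

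**Figure D5:**
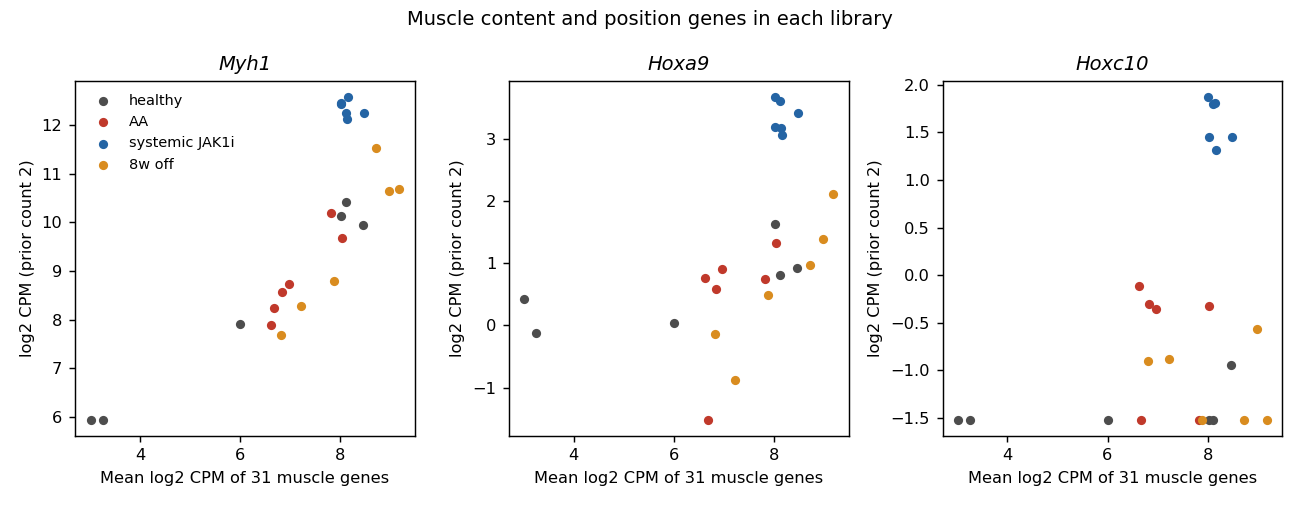
Log2 CPM of Myh1, Hoxa9 and Hoxc10 on the y axes against the mean log2 CPM of 31 muscle genes on the x axis, 1 point for each of the 24 libraries, coloured by group. Both Hox genes are highest in the 6 systemic JAK1i libraries, also against healthy libraries B, D and F with a like mean.

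Of 15 genes known to respond to glucocorticoids, 12 had fold changes above 0 and 1 passed. Sgk1, a kinase induced by serum and glucocorticoids, rose, at 116 to 159 CPM in healthy (median 149) and 174 to 261 CPM in treated skin (median 228), without overlap (log2 fold change 0.64 ± 0.15, adjusted p = 0.0394, edgeR). Sgk1 was called in 2 of 12 fits without 1 library, and not with the muscle covariate (adjusted p = 0.0762, edgeR). A further 7 were higher at an unadjusted p under 0.05 and none lower, among them Klf9 (0.62 ± 0.16, adjusted p = 0.059, edgeR) and Tsc22d3 (0.93 ± 0.26, adjusted p = 0.0813, edgeR). Systemic JAK1i A stood apart, with a sum over the list of 842 CPM, below 5 of 6 healthy libraries (790 to 1239 CPM in all), while the other treated libraries were at 1238 to 1876 CPM. Of 18 circadian genes none passed in edgeR, 7 were higher and 2 lower at an unadjusted p under 0.05, and DESeq2 called 2 and 1. Per2, of the negative arm of the clock, was at 0.87 ± 0.23 and Arntl, of the positive arm, at −0.46 ± 0.12 on the log2 scale (adjusted p = 0.0612 and 0.0577, edgeR). The labels give no time of day for either sampling. Of 20 cholesterol synthesis genes none passed in edgeR, 8 were higher at an unadjusted p under 0.05, and DESeq2 called 2 and limma-voom 6.

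Other genes were named after their values were seen, because they were called in every fit without 1 library. Slc27a3, of the fatty acid transport family, fell from 53.2 to 121 CPM in healthy (median 70.8) to 27.2 to 40.5 CPM (median 28.2), without overlap (log2 fold change −1.28 ± 0.25, adjusted p = 0.0159, edgeR). Banp, a DNA-binding nuclear protein, was at 23.7 to 49.4 CPM and 17.3 to 22.3 CPM (−0.87 ± 0.15, adjusted p = 0.0091, edgeR), and Vwa1, a matrix protein, had a log2 fold change of −0.77 ± 0.13 (adjusted p = 0.0091, edgeR).

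Among smaller rises, Trp53inp1, a stress gene induced by p53, had a log2 fold change of 0.70 ± 0.13 (adjusted p = 0.015, edgeR), and Dusp10, a phosphatase of MAP kinases, one of 1.12 ± 0.21 (adjusted p = 0.014, edgeR). Slc25a33, a mitochondrial nucleotide carrier, rose by 1.28 ± 0.23 on the log2 scale (adjusted p = 0.0091, edgeR), and mt-Tc, the mitochondrial cysteine tRNA, by 0.89 ± 0.15 (adjusted p = 0.00867, edgeR). Tlk2, a chromatin kinase, had the smallest shift of the 170 genes, from 74.4 to 81.3 CPM to 90.1 to 93.6 CPM (0.25 ± 0.05, adjusted p = 0.0143, edgeR), with both groups narrow and apart. The calls of Dusp10 (adjusted p = 0.0687, edgeR) and Tlk2 (adjusted p = 0.0573, edgeR) were lost with the muscle covariate. Gm26315 owed its log2 fold change of −4.76 to 1 library, since healthy C held 684 CPM and all others 3.14 to 5.54 CPM. Without healthy C its log2 fold change was −0.16 (adjusted p = 0.7, edgeR).

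Some of the largest changes belonged to genes that were in none of the gene lists. Folh1, a carboxypeptidase that trims glutamate, was at 0 to 1.78 CPM in healthy and 3.28 to 6.59 CPM in treated skin, without overlap (log2 fold change 2.39 ± 0.50, adjusted p = 0.0166, edgeR). Adprhl1, known from striated muscle (2.35 ± 0.48, adjusted p = 0.0175, edgeR), and BC023105, a pseudogene (2.78 ± 0.66, adjusted p = 0.0315, edgeR), rose too. In log2 CPM, BC023105 was at −0.37 to 2.32 in healthy and 2.22 to 4.80 in treated skin. Its levels were higher still in AA (5.23 to 7.56) and 8w off treatment (6.65 to 8.08), as for the immunity-related GTPase genes above. Folh1 and Adprhl1 missed the threshold without healthy A, and BC023105 without healthy A, C or E or systemic JAK1i A, B or D. Sphkap, an anchoring protein of protein kinase A, fell by 1.87 on the log2 scale (adjusted p = 0.0166, edgeR) and was called in all 12 fits without 1 library. With the muscle covariate the adjusted p in edgeR was 0.0762 for Folh1, 0.098 for BC023105 and 0.0992 for Sphkap. Pyy, a peptide hormone gene (−4.20 ± 1.09), and Gm10420 (−2.59 ± 0.62) passed at an adjusted p of 0.0451 in edgeR, with highest healthy values of 85.4 and 65.0 CPM beside medians of 4.06 and 5.65 CPM. Without healthy B their log2 fold changes were −2.12 and −1.89, and each was called in 3 of 12 fits without 1 library.

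When healthy A and E, the libraries poor in muscle, were both left out, 11 of the 170 genes passed. These were Ifitm6, Ifitm2, H2-Q10 and Gm26315, which were lower, and Gm12185, Eci2, 9630001P10Rik, Gm15883, Hoxa9, Hoxa10 and Hoxc10, which were higher. Eci2, an enzyme of fatty acid breakdown, was at 30.2 to 49.4 CPM in healthy and 54.6 to 69.1 CPM in treated skin (log2 fold change 0.46 ± 0.10, adjusted p = 0.0206, edgeR). 9630001P10Rik (3.02 ± 0.56, adjusted p = 0.00867, edgeR) and Gm15883 (1.81 ± 0.39, adjusted p = 0.0204, edgeR) are antisense transcripts over Fam184b and Cyp2f2, whose reads cannot be told apart where strand was not used in counting. With 4 healthy libraries left the test had fewer samples, and the part of muscle content in the calls that were lost was not tested.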

How the data were processed

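RNA of dorsal skin was sequenced as paired reads after ribosomal RNA depletion by the TruSeq Stranded Total RNA kit, without fragmentation because RNA integrity was low, although the labels also name polyA RNA. Per the labels, the authors' tools were HISAT2 2.0.1 and featureCounts 1.4.4 on GRCm38. The deposited gene counts were used for all main results. The deposited TPM values, for which no source used here gives the tool, nor the strand setting of the counts, served as an alternative on log2(TPM + 0.1), with and without centring each library on its median, by limma. In both tables, 6 columns matched no sample and were left out.

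Counts were fitted in edgeR 4.0.16 (R 4.3.3) by the quasi-likelihood test over 24 libraries in 4 groups, with TMM factors and genes kept by filterByExpr at a minimum count of 10, which left 16248 of 39017. P-values were adjusted by Benjamini-Hochberg over all of them, and a gene was called under 0.05. CPM are TMM-scaled and intervals use 20 degrees of freedom. The scripts were tested on simulated data. Other fits were DESeq2 1.42.0 and limma-voom 3.58.1 with quality weights, other scalings and filters, a replicate block, the 2 groups alone, the muscle mean as a covariate, and fits without each library and without healthy A and E. No source ties a library to a named animal, so p-values measure the spread between these samples. Counting intervals are at 95% and cover counting error only.

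Gene symbols came from GENCODE M21 for 37693 of 39017 identifiers. The members, gene lists and tests were chosen with earlier results of these data known. Genes were named by a rule: the 15 largest rises and falls among called genes with a mean log2 CPM of at least 0, those past the study's thresholds, and, of the lists described, called members, the 2 uncalled members with the smallest p and the 2 of highest mean, besides 18 genes known from earlier results. Not every gene of the rule is named. A gene outside it was named after its values were seen, as were the genes of the list called in every fit. Of the 170 called genes, 60 have exons that overlap another gene, whose reads may be shared. Some genes are not reported here.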

Additional observations from a re-analysis of the deposited data

Results flagged for a closer look

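Of 210 sets of 6 libraries checked, 105 named genes in each of both groups, 15 held a library whose gap to its nearest neighbour exceeded Dixon's 95% critical value for 6 samples, taken as a share of the group's range. Chance flags about 1 set in 20.

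Of the 15, 7 concerned healthy B, and no value was left out for it. It was lowest for Cd209c (2.28 CPM, next 9.01, a gap of 0.688 of the range), Flt3 (4.92 CPM, next 12.3, 0.629), Klrb1f (0.878 CPM, next 2.77, 0.702) and Eci2 (30.2 CPM, next 41.1, 0.628). It was highest for Krt14 (3464 CPM, next 1779, 0.649), Scnn1a (58.9 CPM, next 30.8, 0.763) and Wnt2 (22.7 CPM, next 7.69, 0.714). Other healthy libraries stood out for Gm26315 (healthy C highest at 684 CPM, next 5.54, 0.939), Hoxc10 (healthy F highest at 0.172 CPM, the others at 0, a gap of 1) and mt-Tc (healthy E lowest at 3.72 CPM, next 5.69, 0.637).

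Among treated libraries, systemic JAK1i A was highest for Gbp8 (26.2 CPM, next 5.18, 0.741), and lowest for Krt24 (1.2 CPM, next 3.86, 0.652) and Slc25a33 (4.04 CPM, next 6.62, 0.679). Systemic JAK1i B was highest for Cx3cr1 (4.41 CPM, next 3.24, 0.649), and systemic JAK1i F for Slc27a3 (40.5 CPM, next 30.8, 0.694).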

How the results depend on the processing

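The 170 called genes, 83 higher and 87 lower, became 105 (52 and 53) without a filter on low counts, 286 (130 and 156) with the 2 groups alone, 87 (57 and 30) with the muscle covariate, 12 (7 and 5) without healthy A and E, 634 (288 and 346) by DESeq2 and 2031 (1169 and 862) by limma-voom. Leaving out 1 library at a time gave 49 to 704 genes, 23 to 373 higher and 26 to 331 lower. On uncentred TPM values all genes shifted by a median of 0.34 on the log2 scale and the 166 calls split into 159 higher and 7 lower, whereas centred they were 62 and 65. The 2 genes past the study's thresholds became 1 with a stricter count filter, 23 by DESeq2, 19 by limma-voom, 1 on centred log2(TPM + 1), and 2 to 4 without 1 library. Deviations of healthy and treated libraries with the same replicate letter correlated at −0.043 to 0.092. These are different mice, so the correlations cannot show whether a letter stands for an animal. Whether letters pair the treated libraries with those taken off treatment was not tested. A replicate block gave 104 calls (52 and 52). Of the calls, 159 were kept in the same direction by DESeq2, 162 by limma-voom, 80 on centred TPM and 94 with the block. Over the named genes and settings, 2078 values kept direction and side of the threshold, 434 fell short, 77 newly passed and 18 turned sign. On uncentred log2(TPM + 0.1) the log2 differences turned for Osmr (0.04), Jak1 (0.32), Stat3 (0.16), Cx3cr1 (0.08), H2-Q10 (0.05), Bub1b (0.26), Myh4 (1.59) and Gm26315 (0.46). On centred values they turned for Myh4 (1.23) and Gm26315 (0.11), and with log2(TPM + 1) for Jak1 (0), Sim1 (−0.05), Myh4 (1.21) and Gm26315 (0.13). Myh4 also turned by limma-voom (1.64) and without healthy F (0.08, from a range of −0.61 to 0.08 over fits without 1 library), Jak1 without healthy B (0.01, range −0.04 to 0.01), and Krt71 without healthy A and E (−0.08). The cause of these changes was not tested. Low counts limit genes such as Cd8b1 and Ncr1. The fits without healthy A and E and with the muscle covariate were chosen knowing earlier results.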
